A study of Mus musculus with 8 samples.

Results

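The Sox genes encode transcription factors that bind DNA through an HMG box related to that of Sry. The family members described here were 10 genes, Sox2, Sox4, Sox5, Sox6, Sox7, Sox9, Sox11, Sox12, Sox17 and Sox18, chosen by symbol with all probe sets that the platform annotation gives them, 37 of the 45101 probe sets and 10 of 18193 named genes. The choice was made with the values of these arrays known, among them that Sox2 was present in colon26 only, so the levels in the lines are given as a description without a test. Expression was measured on 8 Affymetrix mouse arrays of cells sorted by FACS from dissociated tumours. The tumours grew under the skin of mice from Lewis lung carcinoma (LLC) cells for 4 weeks or from colon26 colon carcinoma cells for 2 weeks. Both lines stably carry EGFP under the mouse promoter of PSF1, a DNA replication protein encoded by Gins1. The 4 groups were LLC cells with high EGFP, LLC cells with low EGFP, colon26 cells with high EGFP and colon26 cells with low EGFP, each with 2 arrays numbered 1 and 2. The study asked whether the high cells resemble embryonic stem cells in expression.

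The labels call the 2 arrays of a group biological replicates. They do not tie the arrays to tumours or animals. The p-values below measure the spread of the paired high minus low differences, moderated over all tested genes, and that spread may be technical. Whether each line is a single clone, the strain of the mice, and any marker that separated tumour from host cells are not stated in the labels, and host cells carry no EGFP reporter. Line and tumour age cannot be told apart. Gins1 checked the sort: its log2 values were 8.42 and 8.51 in LLC high cells against 7.23 and 7.14 in LLC low cells, and 8.29 and 8.38 in colon26 high cells against 7.56 and 6.97 in colon26 low cells. Of the epithelial markers, Cdh1, Krt7, Krt19 and Cldn7 lay below a log2 value of 5 on all 8 arrays, Krt8 lay between 12.36 and 12.80 in LLC and between 5.31 and 5.95 in colon26, and Epcam lay between 6.70 and 7.18 in LLC and between 5.99 and 6.43 in colon26. The RNA was represented differently on arrays of different number: for 4 control transcripts, 3′ minus 5′ signal had a median on the log2 scale of 2.55 ± 0.13 on the arrays numbered 1 and 0.18 ± 0.15 on those numbered 2 (SD, n = 4 each). The median log2 value of an array lay between 4.76 and 5.02, and between 10565 and 11869 genes exceeded a log2 value of 5. With 2 arrays a group, the precision of each value is limited by their number.

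Sox proteins fall into groups by sequence. Sox2, of the SoxB1 group, holds embryonic stem cells and neural progenitors in an undifferentiated state together with POU factors such as Oct4. Sox4, Sox11 and Sox12 form the SoxC group, which acts in neural and mesenchymal progenitors and in many tumours. Sox9 (SoxE) directs cartilage formation and marks progenitors in several epithelia, Sox5 and Sox6 (SoxD) are its partners in cartilage, and Sox7, Sox17 and Sox18 (SoxF) act in blood and lymphatic endothelium, Sox17 also in endoderm.

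The upstream sequences of Sox2, Sox4 and Sox11 are shown because these 3 genes carried the largest differences between the lines. Each is the 250 bases before the start site in RefSeq, build GRCm38.p6, written in the direction of the gene. Capitals mark a Sox motif (ACAAAG or CTTTGT) or a CCAAT box (CCAAT or ATTGG).
Sox2, chr3:34649745-34649994, plus strand: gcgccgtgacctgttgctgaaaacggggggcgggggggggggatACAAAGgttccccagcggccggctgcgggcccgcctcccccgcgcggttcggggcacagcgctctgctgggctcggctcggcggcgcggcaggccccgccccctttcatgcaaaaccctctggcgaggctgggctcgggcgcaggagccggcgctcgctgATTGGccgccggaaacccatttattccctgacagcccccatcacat
Sox4, chr13:28953700-28953949, minus strand: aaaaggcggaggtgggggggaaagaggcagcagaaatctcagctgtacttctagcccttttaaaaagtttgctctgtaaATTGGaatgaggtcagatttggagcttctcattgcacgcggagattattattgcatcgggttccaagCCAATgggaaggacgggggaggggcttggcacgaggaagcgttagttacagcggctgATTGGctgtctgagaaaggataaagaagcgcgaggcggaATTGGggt
Sox11, chr12:27342719-27342968, minus strand: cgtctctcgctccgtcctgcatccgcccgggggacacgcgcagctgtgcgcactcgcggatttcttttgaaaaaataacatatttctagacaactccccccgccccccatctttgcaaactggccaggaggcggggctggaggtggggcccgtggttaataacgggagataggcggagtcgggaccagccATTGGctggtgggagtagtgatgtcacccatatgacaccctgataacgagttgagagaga

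In windows of 300 bases, 250 before and 50 after the start, the Sox2 promoter held 27 CpG, the Sox11 promoter 21 and the Sox4 promoter 12, against a median of 7 over 32851 mouse promoters of that length. Sox4 had 4 CCAAT boxes, the first bases of which lay 171, 104, 47 and 8 bases before the start. Sox2 and Sox11 had 1 CCAAT box each, 46 and 60 bases before the start. A CCAAT box was present in 37.4% of all promoters. The Sox motif was found in the Sox2 window, 206 bases before the start, and in 18.7% of all promoters. No TATAAA or TTTATA was found in any of the 3 windows, and 13.6% of all promoters held it. The motifs did not overlap in these windows. Promoters were matched for 6 of the 10 genes.

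Sox2 had the plainest pattern. Its single probe set (1416967_at) had log2 values of 3.19 and 2.98 in LLC high cells and 3.22 and 2.98 in LLC low cells, which overlapped. In colon26 it had 10.40 and 10.41 in high cells and 9.84 and 9.46 in low cells, both high arrays above both low arrays. No LLC array exceeded 3.22 and no colon26 array lay below 9.46, with a difference, LLC minus colon26, of −7.32 in high cells and −6.55 in low cells. The LLC values lay near background, so the size of the difference is imprecise, and the contrast entered the choice of Sox2. A gene was tested below where its probe set with the highest mean exceeded 5 on the log2 scale in 2 or more arrays, as 12177 genes did. The scale of a probe set depends on its probes, so levels are compared within a probe set only.

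Sox4, the SoxC factor with the most probe sets here, differed in the same direction. Its probe set with the highest mean (1433575_at) had log2 values of 3.24 and 3.08 in LLC high cells and 5.68 and 3.84 in LLC low cells. In colon26 it had 12.27 and 11.78 in high cells and 12.12 and 11.61 in low cells, which overlapped. LLC minus colon26 was −8.87 in high cells and −7.10 in low cells, with 3 of the 4 LLC arrays between 3.08 and 3.84, near background, so that the size is imprecise here too. Of the 8 Sox4 probe sets 7 were lower in LLC on every array, with differences between −7.99 and −1.31, whereas the values of 1443778_at overlapped, at a difference of −0.52.

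Sox11, the closest relative of Sox4 among the members, went the other way. Its probe set with the highest mean (1431225_at) had log2 values of 10.46 and 9.09 in LLC high cells and 9.82 and 7.67 in LLC low cells. In colon26 it had 5.21 and 4.73 in high cells and 5.46 and 5.93 in low cells. The lowest LLC array lay above the highest colon26 array, the 2 sorts of LLC overlapped, and in colon26 both low arrays lay above both high arrays. LLC minus colon26 was 4.80 in high cells and 3.04 in low cells. Over both sorts, 6 of 6 Sox11 probe sets were higher in LLC on every array, with differences between 1.91 and 3.92.

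**Figure D1:**
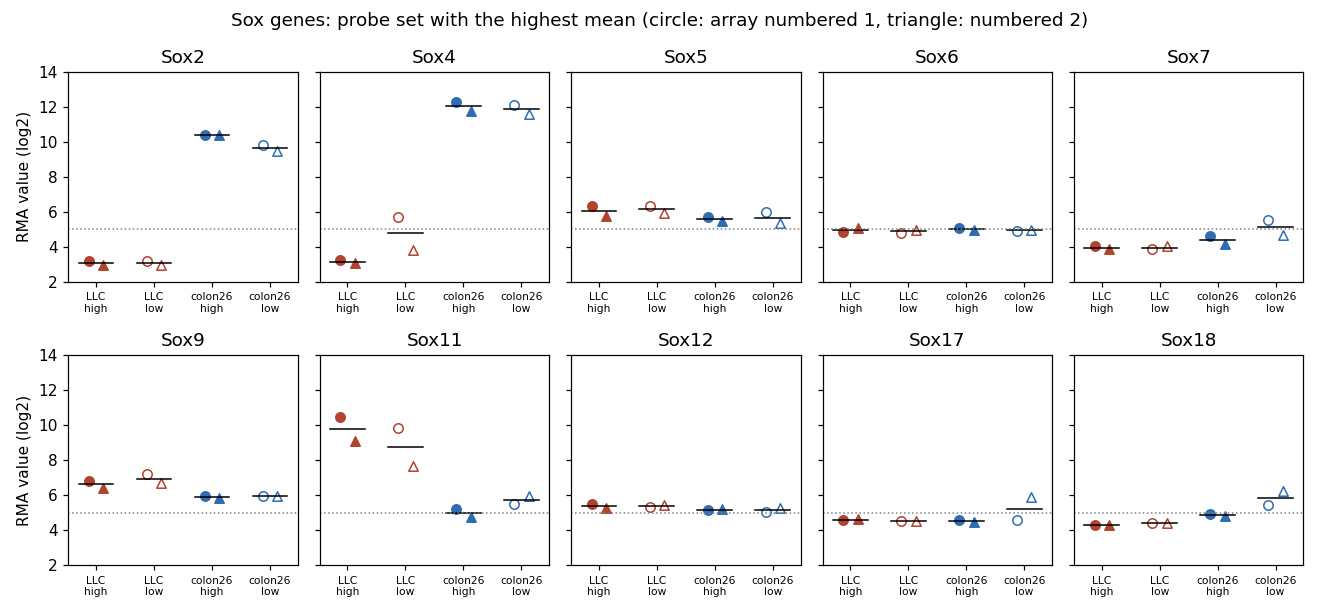
Log2 RMA values of the probe set with the highest mean of each of the 10 Sox genes, by group; circles are arrays numbered 1, triangles those numbered 2, bars the group means, and the dotted line is the filter at 5. Sox2 and Sox4 are at most 5.68 in LLC and at least 9.46 in colon26, Sox11 is at least 7.67 in LLC and at most 5.93 in colon26, and the other 7 genes lie closer together.

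Sox12, the third SoxC gene, showed little of this. Its highest probe set (1455562_at) had 5.50 and 5.27 in LLC high cells, 5.31 and 5.40 in LLC low cells, 5.12 and 5.18 in colon26 high cells and 5.03 and 5.24 in colon26 low cells. The 4 LLC values lay above the 4 colon26 values, by 0.23 on average. A second Sox12 probe set, 1456882_at, did not exceed 5 on any array and differed by −0.73, the other way.

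Sox9, the cartilage and progenitor factor, was higher in LLC. Its highest probe set (1451538_at) had 6.83 and 6.41 in LLC high cells and 7.18 and 6.71 in LLC low cells. In colon26 it had 5.96 and 5.84 in high cells and 5.92 and 5.94 in low cells. The sorts overlapped within each line and the lines did not overlap, at a difference of 0.72 in high and 1.01 in low cells. The 3 Sox9 probe sets disagreed in size: 1424950_at had 6.21 and 6.32 in LLC high cells and 6.02 and 6.18 in LLC low cells, against 4.54 and 3.90 in colon26 high cells and 4.50 and 4.30 in colon26 low cells, a difference of 1.87. The third, 1433889_at, overlapped at 0.10.

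The SoxD genes differed less. Sox5 (1455535_at) lay between 5.77 and 6.34 in LLC and between 5.37 and 5.96 in colon26, which overlapped, whereas another Sox5 probe set, 1432189_a_at, lay between 4.95 and 5.43 in LLC and between 5.86 and 6.61 in colon26. Its difference of −0.99 was opposite in sign to the 0.47 of the first. Sox6 (1434918_at) lay between 4.78 and 5.08 in LLC and between 4.93 and 5.06 in colon26. The other 3 Sox6 probe sets were below 5 on all arrays, with differences between −0.86 and −0.70.

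**Figure D2:**
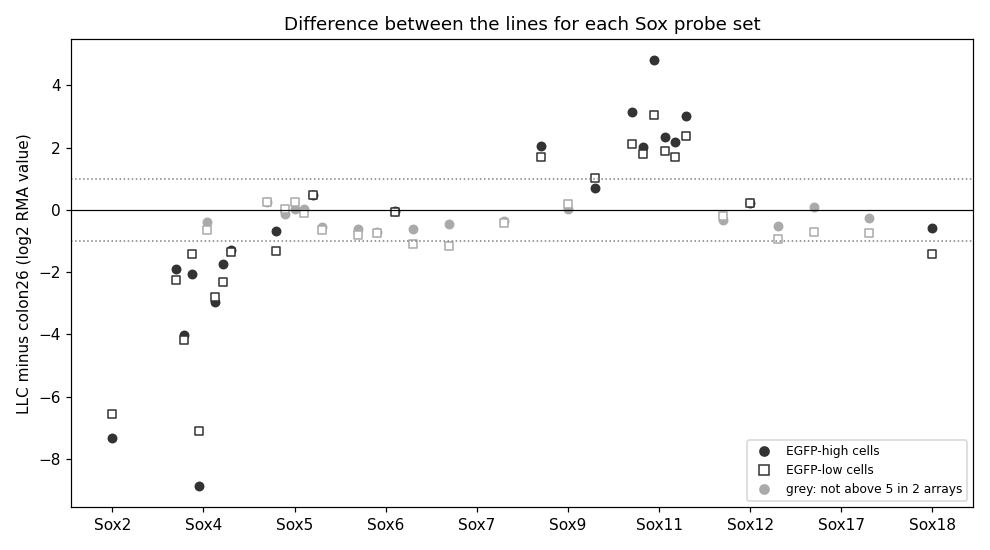
Difference between the lines, LLC minus colon26 in log2 RMA value, of each of the 37 probe sets of the Sox genes; filled circles are EGFP-high and open squares EGFP-low cells, grey marks the 16 probe sets not above 5 in 2 arrays, and dotted lines mark 2-fold. Sox2 and 7 of 8 Sox4 probe sets lie below −1 and all 6 Sox11 probe sets above 1 in both sorts.

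Over the 37 probe sets, 9 were higher in LLC and 16 lower in LLC without overlap of the 4 arrays of each line, and 16 of these 25 differed by more than 2-fold. The share of all probe sets without such overlap was not computed, so these counts have no background beside them. Probe sets with a low signal also differed between the lines: among 11551 probe sets of 1 gene below 5 on all arrays the median difference was −0.42, with 89.8% lower in LLC, so the small negative differences of dim Sox probe sets lay inside that range (5th to 95th percentile −0.84 to 0.16), apart from Sox6 1447655_x_at at −0.86. By gene, 8 of the 10 members passed the filter, and Sox7 and Sox17 did not. In high cells 1 of these 8 (Sox11) was higher and 2 (Sox2, Sox4) were lower in LLC by more than 2-fold without overlap, where 18.7% of all tested genes differed that way in either direction. In low cells the counts were 2 (Sox9, Sox11) and 3 (Sox2, Sox4, Sox18), against 22.7% of all genes. Over both sorts the share was 17.2%. The contrast entered the choice of the genes, and nothing is read from these counts.

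The SoxF genes were low in LLC and reached 5 in colon26 low cells only. Sox18 (1449135_at), a regulator of lymphatic and arterial endothelium, had 4.31 and 4.28 in LLC high cells and 4.41 and 4.39 in LLC low cells, against 4.95 and 4.80 in colon26 high cells and 5.44 and 6.23 in colon26 low cells. It passed the filter through the colon26 low cells alone. Sox7 (1416564_at) lay between 3.85 and 4.02 in LLC, and had 4.62 and 4.18 in colon26 high cells and 5.54 and 4.67 in colon26 low cells. Sox17 (1421657_a_at) lay between 4.51 and 4.62 in LLC, and had 4.56 and 4.45 in colon26 high cells and 4.60 and 5.86 in colon26 low cells. The highest value of each of these probe sets came from a colon26 low array, numbered 1 for Sox7 and 2 for Sox17 and Sox18.

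Between the sorts, high and low arrays were paired by their number within each line, and the pair entered the limma fit as a block. In LLC 607 genes rose and 735 fell in high relative to low cells, 11.0% of the 12177 tested, at a Benjamini-Hochberg adjusted p under 0.05. In colon26 266 rose and 193 fell, or 3.77%, a balance that turned to 22 and 88 after quantile normalization. For the mean of the lines the share was 13.0%, and for the difference between the 2 changes 1.41%. Without the block the 4 counts were 0, 3, 7 and 0 genes, with 794, 438, 982 and 270 at an unadjusted p under 0.05, so each call below rests on the pairing. The values of these contrasts were known when the Sox genes were chosen, and the p-values come from the fit to all genes.

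Of the 8 Sox genes tested, Sox11 rose and Sox4 fell in LLC. In colon26 Sox18 was past the threshold, but it had entered the fit through the colon26 low cells alone and was not past it without the filter. By limma with the block 0 members passed for the mean of the lines (3 had an unadjusted p under 0.05), with Sox4 at −0.72 (limma adjusted p = 0.0597) and Sox18 at −0.53 (limma adjusted p = 0.0559). Sox4 passed for the mean with a filter of 7, after median centring and without LLC pair 2 (limma adjusted p = 0.0228, 0.0258 and 0.000168), and Sox18 after median centring, with robust moderation and without colon26 pair 1 (limma adjusted p = 0.0383, 0.0406 and 0.0323). Without the block 0 members passed. The median change of the 8 was −0.05 in LLC, against 0.04 over all tested genes, and −0.01 in colon26, against 0.08. In bulk cells, fewer cells of a type and less RNA per cell cannot be told apart.

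Sox11 rose in LLC high relative to low cells, by 0.64 in pair 1 and 1.43 in pair 2 on the log2 scale. The mean of 1.03 (SE 0.26) corresponded to 2.05-fold and had a limma adjusted p of 0.0294. In all 6 Sox11 probe sets both LLC pairs were higher in high cells, 12 of 12 differences between 0.08 and 1.43. With every probe set as its own unit, 1431225_at and 1453125_at passed, at limma adjusted p of 0.036 and 0.0306, and the other 4 had adjusted p between 0.0926 and 0.443, where 9.42% of 21773 probe sets passed. The 2 arrays of a sort differed by more than the sorts did: 1431225_at was lower on the array numbered 2 than on that numbered 1 by 1.36 in LLC high and 2.15 in LLC low cells, and the part of the 3′ to 5′ difference between the numbers in this result was not tested. Without LLC pair 2 the change was 0.64 (limma adjusted p = 0.646). The call was also lost without a filter, after quantile normalization, with the LLC arrays alone and without either colon26 pair (limma adjusted p = 0.0655, 0.0854, 0.0721 and 0.0721), and without the block the limma adjusted p was 1.

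In colon26 the same probe set of Sox11 was lower in high cells, by 0.25 in pair 1 and 1.20 in pair 2, and the change of −0.73 (SE 0.26) did not pass (limma adjusted p = 0.192). The LLC change minus the colon26 change was 1.76 (SE 0.37, limma adjusted p = 0.0493). In Sox4 the same difference was −1.76 (SE 0.44) and missed the threshold (limma adjusted p = 0.102), but passed with a filter of 7, after median centring and without LLC pair 2 (limma adjusted p = 0.0298, 0.0205 and 0.000218). The other 5 Sox11 probe sets in colon26 gave mean changes between −0.48 and 0.15, and all their colon26 values lay below 5, near background. Over all 6 Sox11 probe sets, 8 of 12 colon26 pair differences were positive. Of these probe sets 4 were higher and 2 lower in both colon26 pairs. With the mean of all 6 Sox11 probe sets the difference between the lines' changes was 0.77 (limma adjusted p = 0.191), and it also missed the threshold after quantile normalization (1.84, limma adjusted p = 0.233) without a filter (limma adjusted p = 0.123), with every probe set as its own unit (limma adjusted p = 0.069), without either colon26 pair (2.24 and 1.29, limma adjusted p = 0.127 and 0.438) and without LLC pair 2 (1.37, limma adjusted p = 0.238).

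Sox4 fell in LLC high relative to low cells by its probe set 1433575_at, with differences of −2.44 in pair 1 and −0.76 in pair 2. The mean of −1.60 (SE 0.31) had a limma adjusted p of 0.00951. The other 7 Sox4 probe sets changed by −0.18 to 0.15 on average, and 6 of them entered the fit by probe set, with limma adjusted p between 0.634 and 0.978. The values behind the call lay between 3.08 and 5.68, with the array numbered 1 of LLC low cells as the only one above 5. Without LLC pair 1 the change was −0.76 (limma adjusted p = 0.261), with the mean of all probe sets it was −0.18 (limma adjusted p = 0.526), and without the block the limma adjusted p was 0.657. After quantile normalization the limma adjusted p was 0.0612, and with the LLC arrays alone or without either colon26 pair 0.0989. In colon26, where the probe set was bright, Sox4 differed by 0.16 (SE 0.31, limma adjusted p = 0.828).

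Sox2 in colon26 was higher in high than in low cells in both pairs, by 0.56 and 0.94. The mean of 0.75 (SE 0.18, 1.68-fold) did not pass the threshold over all 12177 genes (limma adjusted p = 0.0545). It passed after median centring (0.80, limma adjusted p = 0.0267), with a filter of 7 (limma adjusted p = 0.0244) and with genes taken as the mean of their probe sets (limma adjusted p = 0.0366), and without the block the limma adjusted p was 1. In LLC, where all values lay between 2.98 and 3.22, the change was −0.01 (SE 0.18, limma adjusted p = 0.983). The difference between the lines' changes was −0.77 (limma adjusted p = 0.231).

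**Figure D3:**
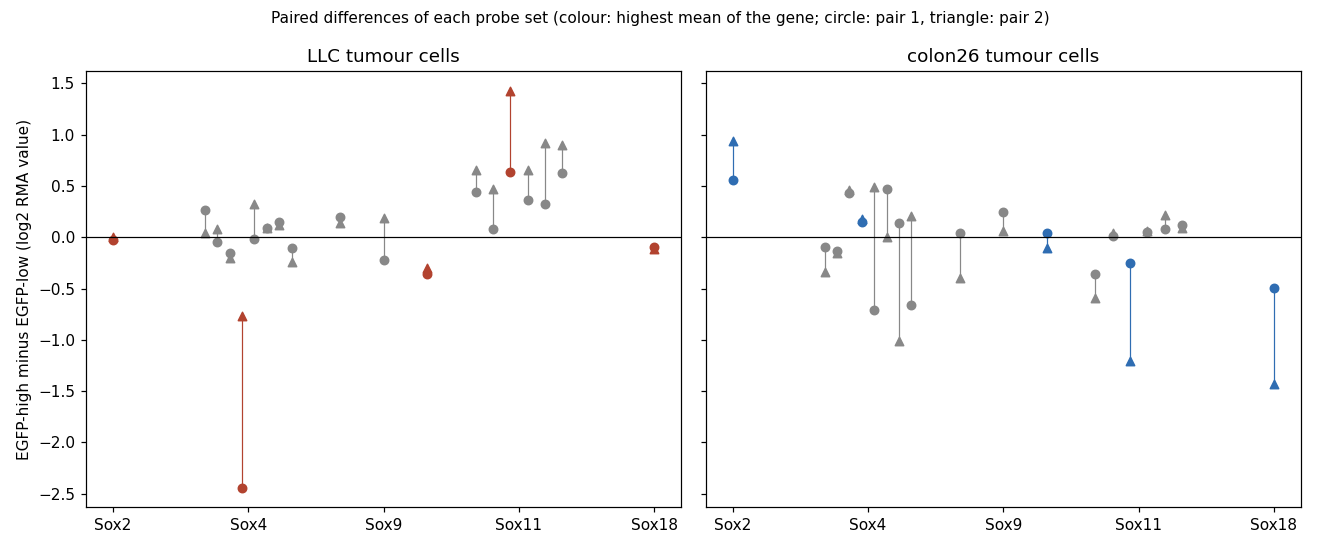
Difference of EGFP-high minus EGFP-low in log2 RMA value in each pair, for every probe set of Sox2, Sox4, Sox9, Sox11 and Sox18; colour marks the probe set with the highest mean, circles pair 1 and triangles pair 2. All 12 Sox11 differences in LLC are above 0, both Sox2 differences in colon26 are at least 0.56, and 1 Sox4 probe set in LLC stands apart from the other 7.

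Sox18 was lower in colon26 high than in low cells in both pairs, with differences of −0.49 and −1.43. Because the low cells alone brought it past the filter, the filter favoured a difference in this direction: the mean of −0.96 (SE 0.23) had a limma adjusted p of 0.0462 with the filter and 0.0989 without it. It also missed the threshold without pair 1 (−1.43, limma adjusted p = 0.0511), without pair 2 (−0.49, limma adjusted p = 0.591), with every probe set as its own unit (limma adjusted p = 0.0691) and after quantile normalization (−1.02, limma adjusted p = 0.152), and without the block the limma adjusted p was 0.987. In LLC its change was −0.10 (SE 0.23, limma adjusted p = 0.839). The 2 other SoxF genes were not tested because of the filter. In colon26 all 4 pair differences of Sox7 and all 4 of Sox17 were negative, with mean changes of −0.71 and −0.73 in their highest probe sets. The Sox7 probe set differed by −0.92 in pair 1 and −0.49 in pair 2. The Sox17 probe set differed by −0.04 in pair 1 and −1.42 in pair 2, so its mean rests on pair 2. The colon26 low array of pair 2 had the highest median log2 value (5.02) and the most genes above 5 (11869) of all arrays.

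Some endothelial markers were also lower in colon26 high cells. Of 17 markers on the array 13 were tested, and in colon26 5 fell and 0 rose, with a median change of −0.68 against 0.08 over all tested genes. In colon26 3.77% of all tested genes passed in either direction. Emcn (5.52 and 5.61) and Robo4 (5.37 and 5.41) exceeded 5 in colon26 low cells alone, so the filter favoured their fall in colon26. The 13 tested markers include both. Plvap, a protein of endothelial fenestrae, changed by −2.13 (SE 0.21), Emcn, a sialoglycoprotein of capillaries and veins, by −1.94 (SE 0.19), and Cdh5, the endothelial cadherin, by −1.30 (SE 0.20). The mean log2 value of the 17 was 5.26 and 5.33 in colon26 high cells against 5.98 and 6.18 in colon26 low cells. Their summed signal was 2689 and 3912 in colon26 high cells and 2993 and 3730 in colon26 low cells, which overlapped, with Cd34 in the sum at log2 values of 11.06 and 11.70 in high cells against 10.93 and 11.32 in low cells. Erg, Tek and Vwf lay below 5 on all 8 arrays. In LLC 2 of the 13 fell, where 11.0% of all tested genes passed in either direction. The median change in LLC was −0.35, and the mean log2 value of the 17 was 4.96 and 5.27 in high cells against 5.23 and 5.77 in low cells. The part of endothelial cells in the Sox18 difference was not tested.

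**Figure D4:**
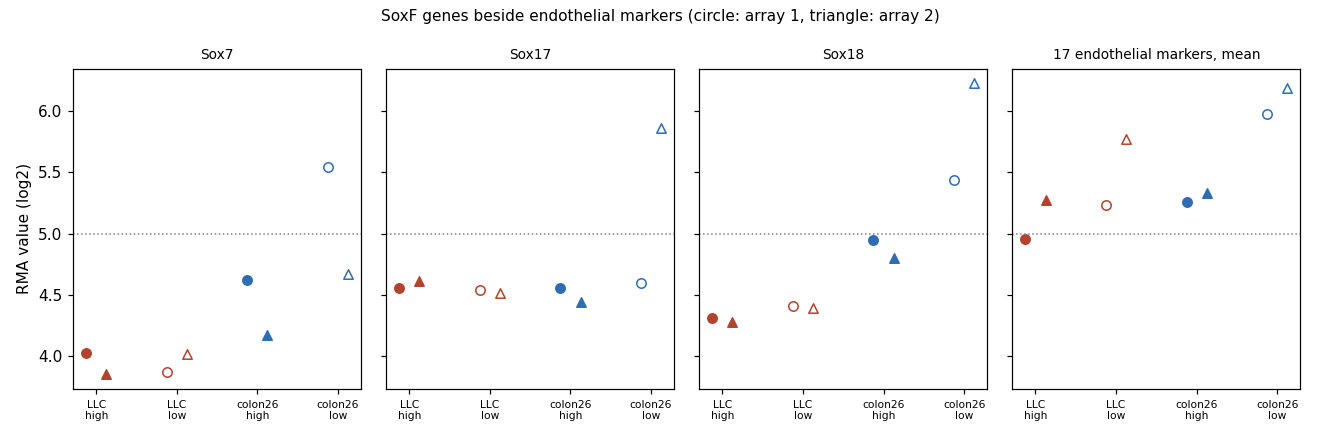
Log2 RMA values of the highest probe set of Sox7, Sox17 and Sox18 and the mean of 17 endothelial markers, by group; circles are arrays numbered 1, triangles those numbered 2, and the dotted line is the filter at 5. The highest value of each SoxF gene and of the marker mean is a colon26 low array, and the LLC values of Sox18 are at most 4.41.

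Other cell type lists moved between the sorts as well. The share of all tested genes that passed in either direction was 11.0% in LLC and 3.77% in colon26. Of 12 fibroblast markers 10 fell in LLC and 6 in colon26, with median changes of −1.99 and −1.16, and of 14 macrophage markers 10 fell in LLC and 13 in colon26, with medians of −1.25 and −2.88. The summed macrophage signal was 851 and 954 in LLC high cells against 2778 and 2500 in LLC low cells, and 1497 and 2292 in colon26 high cells against 11338 and 7095 in colon26 low cells. The summed fibroblast signal was 11502 and 11500 in LLC high cells against 33865 and 51616 in LLC low cells, and 33580 and 34972 in colon26 high cells against 50241 and 40332 in colon26 low cells. No macrophage or fibroblast marker lay below 5 on all arrays. However, Cd163 and Aif1 exceeded 5 in colon26 low cells alone, and C1qa and C1qc on arrays of low cells alone. For these markers the filter favoured a fall, and the macrophage counts and medians include them. Of 9 proliferation genes 8 rose in LLC and 6 in colon26, with medians of 1.62 and 1.47. Of 8 pericyte and smooth muscle genes tested, 3 fell in colon26, among them Mcam, which exceeded 5 in colon26 low cells alone. The part of these cells in the Sox2, Sox4 and Sox11 changes was not tested.

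Sox9 (1451538_at) differed by −0.33 (SE 0.18) between LLC high and low cells, with both pairs negative, and by −0.03 (SE 0.18) in colon26 (limma adjusted p = 0.282 and 0.943). The 95% interval of the LLC change ran from −0.72 to 0.06. The Sox9 probe set 1424950_at was higher in both LLC pairs, by 0.19 and 0.13, and the mean of all Sox9 probe sets changed by −0.06 in LLC (limma adjusted p = 0.857). The highest probe sets of Sox5, Sox6 and Sox12 had pair differences between −0.27 and 0.19 in both lines, 12 differences in all, and the unadjusted limma p of these 3 genes lay between 0.595 and 0.926.

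Some genes on a list of SoxB partners and pluripotency factors were dim. Pou5f1 (Oct4), Nanog, Lin28a, Zfp42 (Rex1) and Pou3f3 lay below 5 on all 8 arrays, and Pou5f1 reached 4.43 and 4.19 in colon26 high cells against 3.86 and 4.23 in colon26 low cells. Of 15 genes of this list on the array 9 were tested. Nes, the intermediate filament of neural progenitors, rose by 0.75 (SE 0.18) in LLC, and Klf4, a Krüppel-like reprogramming factor, fell by 1.72 (SE 0.19). Pax6, a partner of Sox2 in the eye, rose by 1.09 (SE 0.22) in colon26, with values of 8.08 and 7.83 in high cells against 7.43 and 6.31 in low cells. The median change of the 9 was 0.13 in LLC and −0.12 in colon26. Klf4 was also lower in LLC, at 5.84 and 5.34 in LLC high cells and 7.54 and 7.07 in LLC low cells, against 11.21 and 11.63 in colon26 high cells and 11.30 and 11.32 in colon26 low cells.

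The SoxC list held neuronal and regulatory genes reported as targets of Sox4 and Sox11, and 3 of its 4 were tested. Map2, a neuronal microtubule protein, had 5.77 and 5.19 in LLC high cells against 7.27 and 7.38 in LLC low cells, a fall of 1.84 (SE 0.23, limma adjusted p = 0.000968). In colon26 Map2 lay between 3.48 and 4.01. Tubb3, a neuronal tubulin, lay between 4.38 and 5.10 in LLC and between 6.67 and 7.67 in colon26. Tead2, a transcription factor of the Hippo pathway, lay between 7.08 and 7.73 in LLC and between 7.55 and 8.80 in colon26, and the lines overlapped. Over both sorts Map2 was higher and Tubb3 lower in LLC by more than 2-fold.

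Most cartilage genes controlled by Sox9, Sox5 and Sox6 did not pass the filter. Of 15 on the array 5 were tested and 0 passed in either line by limma with the block, where 0 in LLC and 1 in colon26 had an unadjusted p under 0.05, and Acan, Cnmd, Col11a1, Col9a2, Hapln1 and Matn1 lay below 5 on all arrays. Col27a1, a fibrillar collagen of cartilage, had 7.57 and 7.40 in colon26 high cells against 8.48 and 7.86 in colon26 low cells, a change of −0.69 (SE 0.19, limma adjusted p = 0.0855). None of 6 other genes tied to Sox9, among them Ctnnb1 and Bmi1, passed in either line, and 0 had an unadjusted p under 0.05.

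Arterial and lymphatic genes linked to SoxF were tested for 10 of 15. In LLC, where 11.0% of all tested genes passed in either direction, 3 fell: Nrp1, a semaphorin and VEGF co-receptor, by 1.08, Lyve1, a hyaluronan receptor of lymphatic endothelium and some macrophages, by 0.99, and Pdpn, a mucin-type protein of lymphatic endothelium and other cells, by 0.95. In colon26 Lyve1 fell by 1.60, but it exceeded 5 in colon26 low cells alone (5.61 and 5.46), so the filter favoured this fall. The LLC values of Lyve1 lay between 3.16 and 4.66, below the filter. The level of 5 of the 10 was lower in LLC by more than 2-fold without overlap, where 17.2% of all tested genes differed so in either direction, among them Efnb2, an arterial ephrin, at 3.19 and 3.32 in LLC high cells and 3.75 and 3.42 in LLC low cells, against 9.35 and 9.18 in colon26 high cells and 9.53 and 9.54 in colon26 low cells. Gja4, Gja5, Hey2 and Prox1 lay below 5 on all arrays.

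Among the 10 other Sox family genes with Sry, Sox13 and Sox21 differed by more than 2-fold without overlap between the lines in their highest probe set, both lower in LLC, where 17.2% of all tested genes differed so in either direction. Sox21, a SoxB2 factor, had 7.21 and 7.12 in LLC high cells and 6.96 and 6.92 in LLC low cells, against 8.06 and 8.06 in colon26 high cells and 8.09 and 8.10 in colon26 low cells. Sox13, a SoxD factor, lay between 5.01 and 5.47 in LLC and between 6.07 and 6.47 in colon26. Sox10 differed by −0.45 in its highest probe set, by −1.22 in another and by 0.18, with overlap, in the third. Sox1 and Sox3, the other SoxB1 genes, had no probe set above 5 in 2 arrays, with single values of 5.38 and 5.75 on a colon26 low array and 5.01 for Sox3 on a colon26 high array.

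Genes with the pattern most like a member were ranked by Pearson's r over the 8 arrays among 6250 tested genes with an SD of at least 0.5, as a description, since the arrays of a line share most of their differences. For Sox2 they were Rerg (r = 0.9995), Rcan2 (0.9994) and Irx5 (0.9992). For Sox4 they were Egr1 (r = 0.9991), Pid1 (0.9952) and Sema3c (0.9945), and Egr1, an immediate early transcription factor, had 5.24 and 5.14 in LLC high cells and 7.49 and 6.26 in LLC low cells, against 13.46 and 13.22 in colon26 high cells and 13.41 and 13.10 in colon26 low cells. In Egr1, as in Sox4, the LLC low array numbered 1 was the highest of the LLC arrays. For Sox9 they were Lpin1 (r = 0.9964), Ppp1r9a (0.9951) and Trim34a (0.9932). For Sox11 they were Shank3 (r = 0.9844), 1700026J12Rik (0.9822) and Slc7a3 (0.9818), and Shank3 had 8.51 and 7.78 in LLC high cells and 8.29 and 7.15 in LLC low cells, against 4.38 and 4.09 in colon26 high cells and 5.30 and 5.23 in colon26 low cells. For Sox18 they were Meg3 (r = 0.9988), Spata3 (0.9896) and Krt23 (0.9824), and Meg3, an imprinted noncoding RNA, had 6.13 and 6.09 in colon26 high cells against 6.69 and 7.56 in colon26 low cells.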

How the data were processed

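Total RNA of sorted tumour cells (Trizol) was labelled as biotinylated cRNA from 6 ug and hybridised to 1-colour Affymetrix arrays, per the labels. The values deposited by the authors are log2 signals from RMA, as named in the submitters' processing notes; its options are not stated there, nor the arrays it normalized as a set. The colon26 samples have LLC in their description field, and their titles and cell line fields were followed.

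The platform annotation gave 34945 of 45101 probe sets 1 symbol, 932 several and 9160 none, and 64 were controls; only those with 1 were used. A gene was its probe set with the highest mean, and 12177 of 18193 genes exceeded a log2 value of 5 in 2 or more arrays. Models were fitted with limma 3.58.1 (R 4.3.3) to all 8 arrays, with Benjamini-Hochberg adjustment over all genes of a contrast at 0.05. The pair (line and number) was a block, as the choice of members pairs the arrays (2 residual degrees of freedom, prior 8.25). High and low arrays of a number deviated together from their group means (r = 0.888 in LLC and 0.838 in colon26), but with 2 arrays a group this is 1 correlation a line and does not show the pairing by itself. Line differences were given without a test.

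The members, the lists and the rule for naming genes were chosen with earlier results of these data known. That rule took all Sox genes and Gins1, the 3 genes most like each member with an SD of at least 0.5, and per list up to 4 passing genes by smallest p or else the 2 with the highest mean; list members beyond it, and Pou5f1 and Efnb2 values, were chosen after seeing their values. The alternatives tried were no block, other filters, quantile normalization, median centring, other probe set rules, other moderation, only the arrays of a line, and leaving out each array; lines were also compared on arrays of 1 number only, chosen after seeing the data. Promoters were from RefSeq GRCm38.p6. Figures used matplotlib 3.10.9 in Python 3.11.15.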

Additional observations from a re-analysis of the deposited data

Results flagged for a closer look

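The change of Sox11 between the sorts differed between the lines by a test of the difference itself: the LLC change minus the colon26 change was 1.76 on the log2 scale (limma with the pair as a block, adjusted p = 0.0493), with 1.03 in LLC and −0.73 in colon26. These values are of the Sox11 probe set with the highest mean (1431225_at), in which both LLC pairs were above 0 and both colon26 pairs below it. Over all 6 Sox11 probe sets, 8 of 12 colon26 pair differences were positive, and 4 probe sets were higher in both colon26 pairs. With the mean of all 6 the difference between the lines' changes was 0.77 (limma adjusted p = 0.191). Over its alternatives the adjusted p ran between 0.00409 and 1.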

How the results depend on the processing

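The calls rest on the pairing. Without the replicate block 0 genes passed in LLC, 3 in colon26, 7 for the mean of the lines and 0 for the difference between the lines' changes, and with it 1342, 459, 1588 and 172. That difference count was 56 without a filter, 272 with a filter of 7, 1 after quantile normalization, 307 after median centring and 320 with a mean-variance trend and robust moderation. The colon26 count was 110 after quantile normalization, and LLC had 2052 calls with every probe set as its own unit. Leaving out each array gave 396 to 943 genes in LLC, 59 to 552 in colon26, 509 to 1109 for the mean of the lines and 0 to 175 for the difference. The counts of Sox genes more than 2-fold apart between the lines stayed at 3 in high cells and at 4 or 5 in low cells under the alternatives run. Directions of small Sox changes turned in 4 cases: colon26 Sox9 was 0.0102 after median centring and −0.107 to 0.0392 without single arrays; colon26 Sox4 was −0.0363 with the mean of all probe sets; LLC Sox2 was −0.0287 to 0.0013 without single arrays; and Sox11 for the mean of the lines was −0.0844 to 0.39 without single arrays. The cause was not tested. Values below 5 lie near background, which limits Sox4 and Sox2 in LLC, most Sox11 probe sets in colon26 and the SoxF genes. The highest Sox11 probe set lay between 4.73 and 5.93 in colon26, close to that level.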
